A study of Mus musculus with 26 samples.

Results

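A group of 7 genes that steer RNA processing and gene silencing during neuronal differentiation was followed in single cells of the postnatal mouse retina. They are 5 regulators used by neurons (Mir124a-1hg, Srrm4, Ptbp2, Elavl3 and Elavl4) and 2 repressors used by progenitors (Rest and Ptbp1), and they make up 7 of the 18193 genes on the arrays and 19 of the 45101 probe sets. The genes were chosen by name as one pathway, with their measured differences between the groups in these same cells already known. Those differences are therefore given as a description, with no test, and support nothing. Every probe set that GEO's platform annotation gives to a single one of the 7 genes was included.

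The study measured 13 N1-CKO and 13 WT retinal cells, each on its own Affymetrix expression array. All mice, including those that gave the WT cells, were homozygous for a floxed Notch1 allele on a C57BL/6 background. Plasmids were electroporated into retinas in vivo on postnatal day 0, and the cells were taken on postnatal day 3. N1-CKO cells received Cre recombinase under the broadly active CAG promoter together with CALNL-GFP, a GFP reporter that Cre switches on. WT cells received GFP under the CAG promoter, without Cre, so that Cre itself also differs between the groups. Electroporation reaches only some cells of a retina, and cells were picked by hand for their GFP, so the cells sampled are those that took up plasmid. Reverse transcription from oligo dT and PCR amplification came before the arrays. The labels name no animal, and each group stands as 1 sample. SDs below describe the spread between cells.

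REST is a zinc finger protein that recruits corepressors to RE1 elements and keeps neuronal genes silent outside neurons. The microRNA miR-124, one of whose precursors lies in Mir124a-1hg, lowers many transcripts of progenitors, among them Ptbp1 and a phosphatase that works with REST. PTBP1 blocks the inclusion of neuronal exons, also in its paralog Ptbp2, so that its loss lets PTBP2 protein appear, and SRRM4 promotes the inclusion of neuronal microexons and of an exon that shortens REST. ELAVL3 and ELAVL4, the proteins HuC and HuD, bind U-rich sequence in neuronal transcripts and affect their splicing and stability. Mir124a-1hg, also called Rncr3, is an abundant host RNA in the retina. The arrays measure the host RNA and not the mature microRNA, and spliced forms were not told apart here.

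Promoter sequence is shown for the splicing regulators whose levels are compared here: Srrm4 and Elavl3, detected in more N1-CKO than WT cells, and the paralogs Ptbp2 and Ptbp1. Each is the 250 bases before the gene's start from RefSeq, build GRCm38.p6, read 5′ to 3′ on the gene's strand, and 5 of the 7 genes had an entry. Capitals mark matches, on either strand, to the E-boxes CAGCTG and CAGATG, which proneural bHLH factors such as NEUROD1 bind, and to CAGCACC and GGACAGC, the cores of the left and right parts of the RE1 element.
Srrm4, chr5:116591818-116592067, minus strand: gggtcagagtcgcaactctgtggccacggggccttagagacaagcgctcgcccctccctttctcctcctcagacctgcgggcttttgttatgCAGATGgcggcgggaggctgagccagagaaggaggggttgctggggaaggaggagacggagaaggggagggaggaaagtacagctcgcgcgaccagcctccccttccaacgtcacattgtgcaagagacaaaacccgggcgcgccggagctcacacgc
Elavl3, chr9:22052024-22052273, minus strand: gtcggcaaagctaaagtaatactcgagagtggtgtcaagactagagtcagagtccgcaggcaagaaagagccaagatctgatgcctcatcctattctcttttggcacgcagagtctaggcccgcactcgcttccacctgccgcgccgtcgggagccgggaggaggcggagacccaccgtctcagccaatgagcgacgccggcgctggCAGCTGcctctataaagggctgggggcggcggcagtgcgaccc
Ptbp2, chr3:119783389-119783638, minus strand: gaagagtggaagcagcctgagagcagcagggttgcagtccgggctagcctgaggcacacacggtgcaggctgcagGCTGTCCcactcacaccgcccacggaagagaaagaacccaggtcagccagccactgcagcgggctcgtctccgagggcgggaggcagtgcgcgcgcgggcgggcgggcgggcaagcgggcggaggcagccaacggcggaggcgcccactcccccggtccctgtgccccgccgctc
Ptbp1, chr10:79854182-79854431, plus strand: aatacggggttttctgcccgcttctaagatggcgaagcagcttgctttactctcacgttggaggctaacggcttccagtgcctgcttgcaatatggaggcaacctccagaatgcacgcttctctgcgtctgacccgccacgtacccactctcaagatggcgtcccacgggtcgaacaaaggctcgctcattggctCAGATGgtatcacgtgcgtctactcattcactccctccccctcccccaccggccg
Srrm4 and Ptbp1 each held 1 CAGATG, which 14.4% of 32851 RefSeq promoter windows of this length hold. Elavl3 held 1 CAGCTG, present in 13.0% of windows. Ptbp2 held 1 GGACAGC, which reads GCTGTCC on the strand shown and is present in 5.28% of windows. None of these 4 windows held CAGCACC, present in 5.73%. Elavl4, detected in no cell, has 4 such windows in the table, and 3 of them held CAGATG, 2 with CAGCTG as well. Those 2 windows overlap, and their matches are the same sites. The GC content was 63.2% for Srrm4, 61.6% for Elavl3, 72.4% for Ptbp2 and 57.6% for Ptbp1, against a median of 52.4% over all windows. A match is only a run of letters, and binding was not measured here.

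Signals are MAS5 intensity, and log2 was taken after raising values under 25.02 to that level (log2 of 4.65). Detection of a gene in a cell required a signal at or above the 90th percentile of that cell's array, which makes 4504 probe sets in every cell, and a gene's detection is that of its brightest probe set unless another is named. That threshold lay between 245 and 2164 in N1-CKO cells and between 396 and 2409 in WT cells. The 5′ control probe set for 18S ribosomal RNA split the arrays into 5 N1-CKO and 5 WT arrays with a high signal (20276 to 93363 in N1-CKO, 12106 to 44596 in WT) and 8 of each with a low one (26.9 to 650.2 in N1-CKO, 75.3 to 2059 in WT). The 3′ to 5′ signal ratio of Gapdh, a measure of how complete the cDNA was, had a median of 2.67 in N1-CKO cells and 1.79 in WT cells, and was above 3 in 5 N1-CKO and 2 WT cells. Notch1 itself was detected in 8 N1-CKO and 10 WT cells (10.35 ± 4.21 in N1-CKO cells and 12.00 ± 3.06 in WT cells), but where its probe set lies relative to the deleted part is not known here, so this checks no label. The retinal label was borne out by transcripts such as Neurod1, detected in 13 N1-CKO and 9 WT cells, while microglia and astrocyte markers were each detected in at most 1 cell. The hemoglobin transcript Hba-a2 was detected in all 26 cells at a like level (15.13 ± 1.18 in N1-CKO cells and 15.14 ± 0.93 in WT cells).

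**Figure D1:**
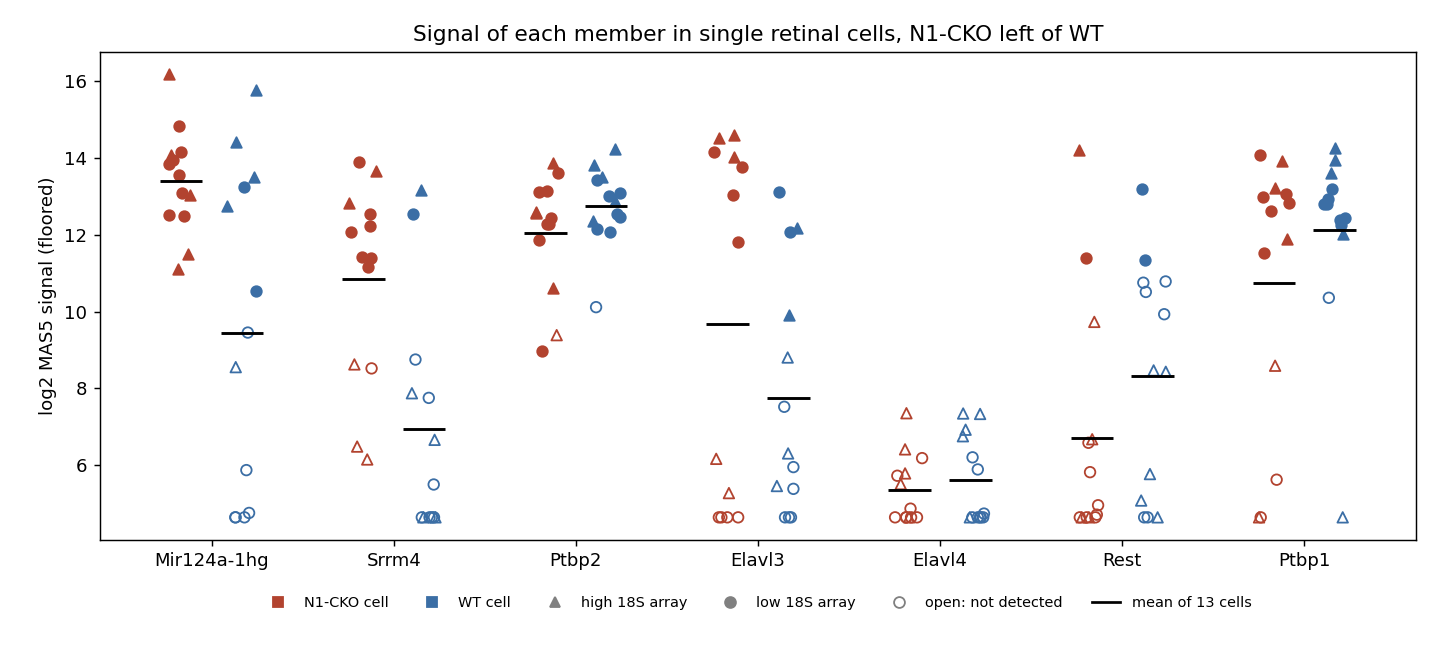
Log2 MAS5 signal (floored at 4.65) of each gene in every cell, N1-CKO cells left of WT cells, with the mean of 13 cells as a bar, open symbols for cells where the gene was not detected, and triangles for arrays with high 18S signal. All 13 N1-CKO cells sit above 11 for Mir124a-1hg while 7 WT cells are open symbols, and Elavl4 stays below 8 in all 26 cells.

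Mir124a-1hg and Srrm4 were detected in more N1-CKO than WT cells, Elavl3 likewise by a smaller margin, Ptbp2 in 12 cells of each group, and Elavl4 in none. In all, 6 of the 7 genes were detected in at least 2 of the 26 cells. Of the 4 neuronal regulators among them, 3 had a higher and 1 a lower mean in N1-CKO cells, and both repressors had a lower mean. Over the 8280 genes detected in at least 2 cells, 48.5% had a higher and 51.5% a lower mean in N1-CKO cells, and the median difference was -0.04 on the log2 scale (0.18 within high 18S and -0.15 within low 18S arrays). Mir124a-1hg and Srrm4 were the 2 members with a mean at least 2 log2 units (4-fold) higher, a size that 4.75% of the 8280 genes reached. Elavl3, at a difference of 1.94, was just outside that limit. None of the members was lower by 2 or more, as 6.92% of genes were. The genes were picked with these values known, and nothing is read from the shares.

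Mir124a-1hg, which carries a precursor of miR-124, had signals of 2221 (lowest), 12090 (median) and 74180 (highest) in N1-CKO cells, against 6.65, 701 and 55247 in WT cells. It was detected in 13 of 13 N1-CKO cells (100%, exact 95% interval 75.3 to 100) and 6 of 13 WT cells (46.2%, 19.2 to 74.9). The WT cells with the transcript were numbers 1, 3, 8, 9, 11 and 12. Of the 13 WT cells, 8 lay below every N1-CKO cell while the other 5 overlapped with them. These calls depend on the threshold. At the 95th percentile N1-CKO cells 9 and 11 and WT cell 3 dropped out, and at the 85th WT cells 6 and 10 joined. WT cell 3, at 1489, lay just above the threshold of 1478 on its array. The mean log2 signal was 13.41 ± 1.36 in N1-CKO cells and 9.44 ± 4.20 in WT cells (SD, n = 13 each), a difference of 3.97. Among cells with the transcript detected, the median signal was 12090 in N1-CKO and 10570.5 in WT, which are close, while 13 N1-CKO and 6 WT cells had it detected. In all, 147 genes were detected in all 13 N1-CKO cells and 178 in all 13 WT cells. Of the 147, Mir124a-1hg was the only one detected in as few as 6 WT cells. The limits of 13 and 6 cells are its own counts, so nothing is read from this. It has a single probe set on the array.

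The difference in Mir124a-1hg was not alike in the 2 array sets. On arrays with high 18S signal it was detected in 5 of 5 N1-CKO and 4 of 5 WT cells, with means of 13.18 in N1-CKO and 12.99 in WT and a difference of 0.18 (-0.93 to 0.87 when each of these cells was left out in turn, and below 0 without N1-CKO cell 8 or 10 or WT cell 10). On arrays with low 18S signal it was detected in 8 of 8 N1-CKO and 2 of 8 WT cells, with means of 13.56 in N1-CKO and 7.22 in WT and a difference of 6.33 (5.96 to 7.19 in the same way). Transcripts of the G2 and M phases moved with this split: their median difference was -1.17 in the high set and -4.16 in the low set. The part of the array set and of cell cycle phase in the Mir124a-1hg difference was not tested. Among arrays whose Gapdh ratio was 3 or less, the difference was 3.53, with detection in 8 of 8 N1-CKO and 5 of 11 WT cells.

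Srrm4 encodes the splicing factor nSR100. Its signals were 71.1, 2758 and 15185 (lowest, median, highest) in N1-CKO cells, against 6.66, 45.2 and 9213 in WT cells. It was detected in 9 of 13 N1-CKO cells (69.2%, 38.6 to 90.9) and in 2 of 13 WT cells (15.4%, 1.92 to 45.4). The WT cells were numbers 11 and 13. At the 85th percentile the same cells held it, but at the 95th only N1-CKO cells 3, 5 and 8 and WT cell 11 did. On this probe set, signals lay in separate ranges within N1-CKO: 9 cells lay at 2307 or above and the other 4 (numbers 2, 9, 10 and 11) at 395 or below. Undetected WT cells reached 431 and detected ones began at 5954, so the groups overlapped in both ranges. A second Srrm4 probe set was detected in N1-CKO cells 4, 8 and 9 and in WT cell 9. Cell 9 of each group was thus detected on it but not on the first. This probe set is one that Affymetrix marks as possibly matching other sequences. Its signal in WT cell 9 was 443, just above that array's threshold of 414. The mean was 10.85 ± 2.58 in N1-CKO cells and 6.93 ± 3.01 in WT cells (SD, n = 13 each), a difference of 3.91. With the probe sets of the gene averaged the difference was 1.51, under the limit of 2. With the brightest it was 2.15 on high 18S arrays (2 of 5 N1-CKO and 1 of 5 WT cells), 5.02 on low 18S arrays (7 of 8 N1-CKO and 1 of 8 WT) and 2.79 at a Gapdh ratio of at most 3 (4 of 8 N1-CKO and 2 of 11 WT).

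Elavl3, the gene of the neuronal RNA-binding protein HuC, had signals of 3.95, 3593 and 24541 in N1-CKO cells, against 0.952, 79.2 and 8903 in WT cells (lowest, median, highest). It was detected in 7 of 13 N1-CKO cells (53.8%, 25.1 to 80.8) and 4 of 13 WT cells (30.8%, 9.09 to 61.4), and these intervals overlap widely. Its values had a gap within N1-CKO, where no cell lay between 71.9 and 3593. WT cells filled that gap with signals such as 184, 447 and 954. The mean was 9.68 ± 4.58 in N1-CKO cells and 7.74 ± 3.13 in WT cells (SD, n = 13 each), a difference of 1.94 that is smaller than either SD. It was 2.38 on high 18S arrays (3 of 5 N1-CKO and 2 of 5 WT cells), 1.67 on low 18S arrays (4 of 8 N1-CKO and 2 of 8 WT) and 3.13 at a Gapdh ratio of at most 3 (5 of 8 N1-CKO and 3 of 11 WT). A second Elavl3 probe set was detected in 2 N1-CKO and 3 WT cells and had a difference of -1.08, opposite in sign. With the probe sets averaged the difference was 0.17, so the direction for Elavl3 rests on the brighter probe set.

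Elavl4, the gene of HuD, was not detected by any of its 3 probe sets. Its signals spanned 1.90 to 164 (median 29.3) in N1-CKO cells and 2.15 to 163 (median 26.8) in WT cells, close to the floor and overlapping throughout. Detection in 0 of 26 cells allows a share of up to 11.5% (3 counts of the total).

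Ptbp1 and Ptbp2 encode the paralogs that replace each other as neurons form. Ptbp1 had signals of 2.55, 6273 and 17324 (lowest, median, highest) in N1-CKO cells, against 14, 7113 and 19609 in WT cells. It was detected in 9 of 13 N1-CKO cells (69.2%) and 11 of 13 WT cells (84.6%, 54.6 to 98.1), and the groups overlapped over nearly their whole range. Cells where it was not detected were numbers 6, 10, 11 and 12 in N1-CKO and 7 and 9 in WT. The mean was 10.74 ± 3.57 in N1-CKO cells and 12.12 ± 2.45 in WT cells (SD, n = 13 each), and the difference of -1.38 was smaller than either SD. The difference was -1.24 on high 18S arrays, and 0.21 there without N1-CKO cell 11. It was -1.47 on low 18S arrays, with a range of -1.92 to -0.58 when each cell was left out in turn. The probe set is one that Affymetrix marks as matching several transcripts of the gene, and the difference was -0.05 with the brightest probe set without such a mark, which was detected in no cell.

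Ptbp2 transcript, present in neurons and in progenitors, had signals of 500.1, 5508 and 14845 in N1-CKO cells, against 1109, 7541 and 19116 in WT cells (lowest, median, highest). It was detected in 12 cells of each group, all except number 3 of each. The mean was 12.05 ± 1.51 in N1-CKO cells and 12.74 ± 1.02 in WT cells (SD, n = 13 each), a difference of -0.69 that is smaller than either SD and opposite in sign to those of Mir124a-1hg and Srrm4. The difference was -1.56 on high 18S and -0.15 on low 18S arrays, where it was 0.32 without N1-CKO cell 6 and 0.01 without WT cell 13. Both paralogs were detected together in 8 N1-CKO and 10 WT cells, so most cells of both groups held transcripts of both. PTBP1 acts on Ptbp2 by exon choice, which was not measured here.

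Rest had signals of 1.35, 31.1 and 19035 in N1-CKO cells, against 1.27, 354 and 9415 in WT cells (lowest, median, highest). It was detected in 2 cells of each group, numbers 1 and 8 in N1-CKO and 3 and 4 in WT, and the groups overlapped throughout. At the 85th percentile N1-CKO cell 3 and WT cells 1, 2, 5, 8, 9 and 13 joined them. The equal count thus depends on the threshold. Below the detection threshold, 3 WT cells lay between 1459 and 1763 while the brightest N1-CKO cell without detection lay at 850.0. The mean was 6.72 ± 3.12 in N1-CKO cells and 8.32 ± 3.03 in WT cells (SD, n = 13 each), a difference of -1.61 that is smaller than either SD. The difference was 1.5 on high 18S arrays and -3.55 on low 18S arrays, but without N1-CKO cell 8 the value on high 18S arrays was -0.06. That cell had the highest single value of Rest, and without it the difference over all cells was -2.23. The other 3 Rest probe sets were detected in no cell.

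The remaining 12 probe sets of the 7 genes gave little signal. Of these, 9 were detected in no cell, and the other 3, of Srrm4, Ptbp2 and Elavl3, in at most 5 cells. Their differences ran from -1.08 to 0.39, and 6 of the 12 had the opposite sign to the brightest probe set of the gene.

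**Figure D2:**
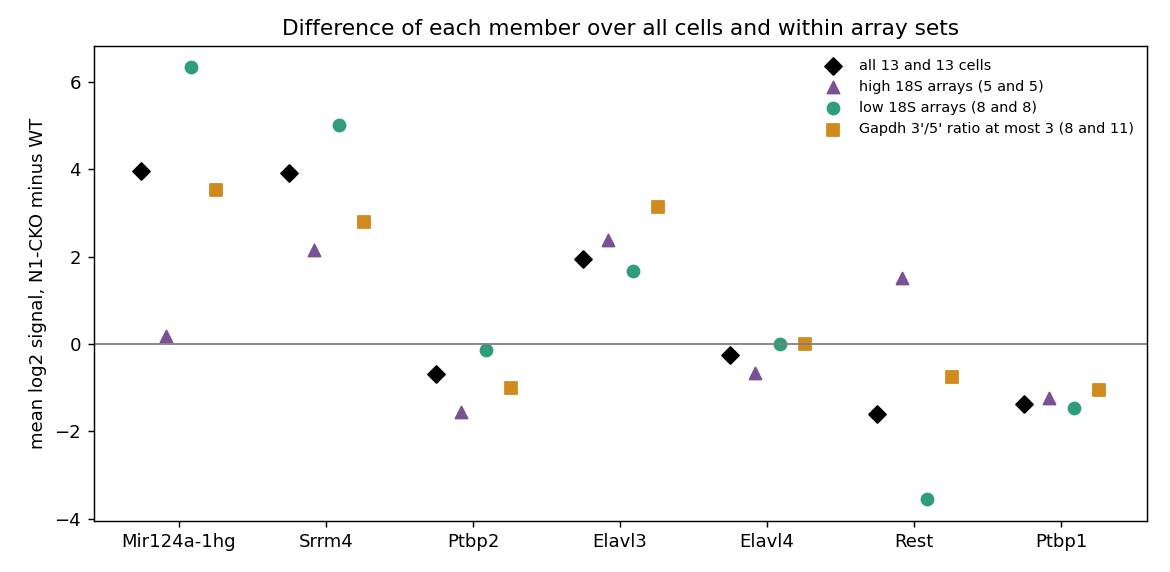
Difference in mean log2 signal, N1-CKO minus WT, of each gene over all cells (black), within high 18S arrays (5 cells of each group), within low 18S arrays (8 of each) and at a Gapdh 3′ to 5′ ratio of at most 3 (8 N1-CKO and 11 WT). The Mir124a-1hg difference runs between 0.18 and 6.33 and that of Rest between 1.5 (-0.06 without N1-CKO cell 8) and -3.55 across array sets, while Ptbp1 stays between -1.47 and -1.06.

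Counted within each cell, N1-CKO cells held 2 to 4 of the 5 neuronal regulators (median 3) and WT cells 1 to 4 (median 2). At least 3 were detected in 11 of 13 N1-CKO cells (84.6%, 54.6 to 98.1) and in 2 of 13 WT cells (15.4%, 1.92 to 45.4), WT numbers 11 and 12. A single one was held by 0 N1-CKO cells and 5 WT cells. Ptbp2 was detected in 12 cells of each group and Elavl4 in none, so the groups differ here in Mir124a-1hg, Srrm4 and Elavl3. These genes were picked with their values known. How often other sets of genes give such counts was not computed, and nothing is read from them. On low 18S arrays the ranges did not overlap, at 3 to 4 in N1-CKO and 1 to 2 in WT. On high 18S arrays the medians were 3 in N1-CKO and 2 in WT, and the ranges overlapped. At the 90th percentile the repressors did not separate the groups in this way. Neither was held by 4 N1-CKO and 2 WT cells, 1 by 7 N1-CKO and 9 WT cells, and both by 2 cells of each group.

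**Figure D3:**
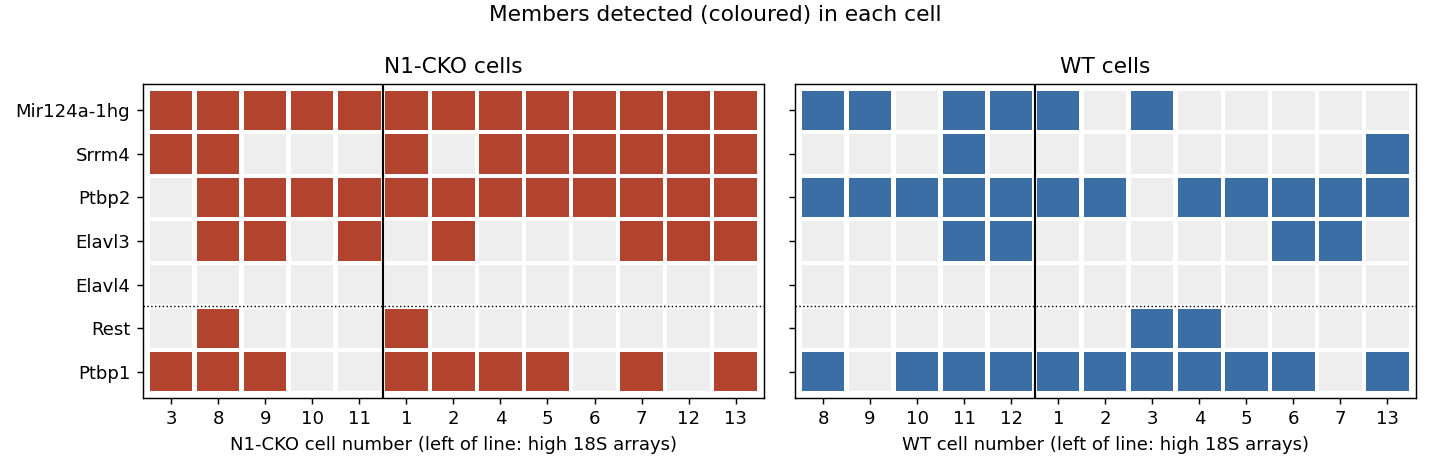
Detection of each gene (rows, repressors below the dotted line) in each cell (columns), N1-CKO left and WT right, with coloured tiles for detected and the high 18S arrays left of the vertical line. All 13 N1-CKO cells hold Mir124a-1hg, and Srrm4 is coloured in 9 N1-CKO and 2 WT cells.

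Neuronal regulators and repressors were detected in the same cells. Of the 9 N1-CKO cells with Srrm4, 7 also had Ptbp1, and both WT cells with Srrm4 had it. Mir124a-1hg and Ptbp1 were found together in 9 N1-CKO and 5 WT cells. Both N1-CKO cells with Rest also had Srrm4, and neither WT cell with Rest did. Srrm4 and Elavl3 overlapped in part: in N1-CKO, 4 cells had both, 5 had Srrm4 alone, 3 had Elavl3 alone and 1 (number 10) had neither, and in WT these counts were 1, 1, 3 and 8. These counts use the brightest probe set. N1-CKO cell 9, counted with Elavl3 alone, and WT cell 9, counted with neither, were detected on the second Srrm4 probe set. Detection of one regulator in a cell thus did not always go with detection of the others. A transcript missed in amplification from 1 cell cannot be told apart from an absent one here. The mean of the neuronal regulators minus that of the repressors, with each gene centred over the 26 cells, was 1.64 ± 2.87 in N1-CKO cells (-2.89 to 6.91) and -1.64 ± 3.15 in WT cells (-6.61 to 3.30), and the centring makes these means mirror images. On high 18S arrays it was 1.15 in N1-CKO and 0.78 in WT, and on low 18S arrays 1.94 in N1-CKO and -3.15 in WT.

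Relations between the genes and other transcripts were computed within each group over 13 cells, 78 in all, and those given here were picked after their values were seen. Points in a group share the amplification protocol and the common scaling of arrays, and many values lie below the detection threshold. Rest against the mean of transcripts of G2 and M phase gave Pearson's r of 0.39 and Spearman's rho of 0.35 in N1-CKO cells, and r of 0.62 without the 2 cells farthest from the median of the gene named first (likewise for the relations that follow). In WT cells r was 0.73, rho 0.75 and r without 2 cells 0.79, so Rest was higher where those transcripts were higher. Elavl3 ran the other way, with r of -0.29 and rho of -0.13 in N1-CKO cells (r of -0.27 without 2 cells), against r of -0.72, rho of -0.67 and r of -0.45 without 2 cells in WT cells. Ptbp2 gave r of -0.40 in N1-CKO cells (-0.22 without 2 cells) and -0.57 in WT cells (-0.82 without 2 cells). Elavl3 against Rest gave r of -0.20 in N1-CKO cells (-0.14 without 2 cells) and -0.85 in WT cells (-0.79 without 2 cells). Ptbp2 was lower in N1-CKO cells with more photoreceptor precursor transcript (r of -0.66, rho of -0.87, r of -0.77 without 2 cells), while r in WT cells was 0.22 (0.52 without 2 cells). The difference between the groups in these relations was not tested.

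**Figure D4:**
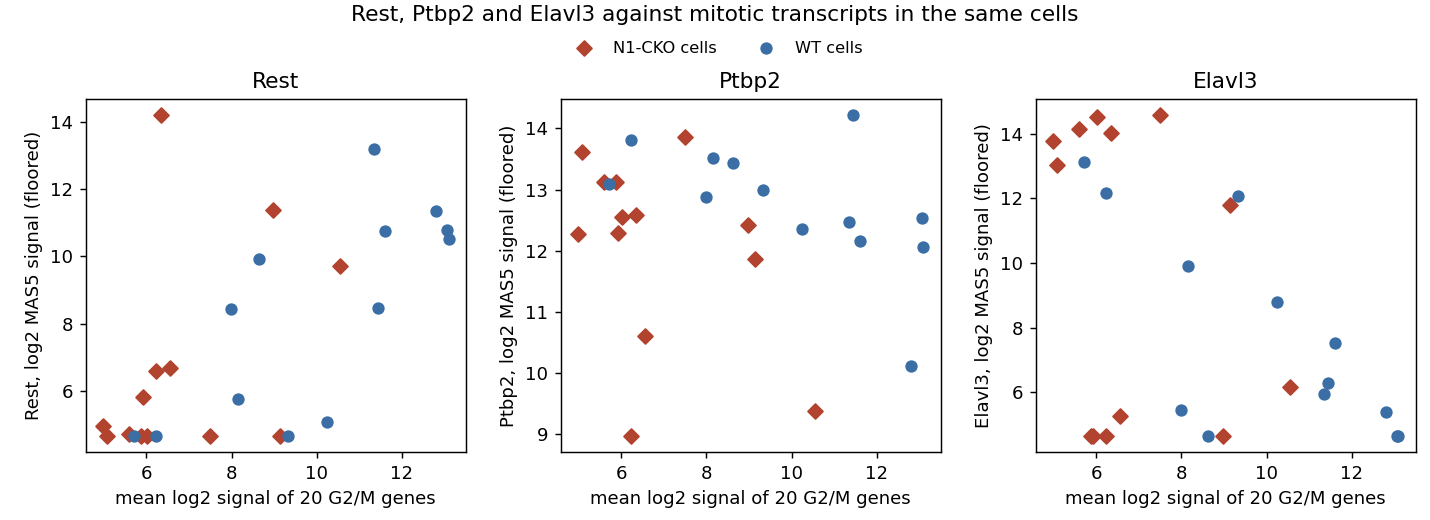
Log2 signal of Rest, Ptbp2 and Elavl3 in each cell against the mean log2 signal of 20 G2 and M phase genes, N1-CKO as diamonds and WT as circles. Most N1-CKO cells sit to the left, and in WT cells Rest is higher (r of 0.73) and Elavl3 lower (r of -0.72) towards the right.

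Genes whose pattern was most like a member were ranked by Pearson's r over the 26 cells among 4682 genes detected in at least 6 cells, so the 2 groups contribute to every r. Closest to Srrm4 were Neurod1, a proneural factor of photoreceptor precursors (r of 0.68, with 0.56 within N1-CKO and 0.63 within WT), Nuak2 (0.65), Mxd4 (0.64) and Ankrd33b (0.60). Neurod1 was detected in 13 N1-CKO and 9 WT cells and differed by 2.67. Against the mean of photoreceptor precursor transcripts, Neurod1 among them, Srrm4 gave r of -0.20 in N1-CKO cells (-0.15 without 2 cells). In WT cells that r was 0.72 (0.39 without 2 cells). Closest to Mir124a-1hg were Bin1, a membrane-bending protein (0.65, with 0.59 within N1-CKO and 0.63 within WT), Igdcc4 (0.64), Hagh (0.61) and Fam174c (0.60). Hagh had an r of -0.31 within N1-CKO and 0.82 within WT. Least like the mean of the neuronal regulators were Lbr, a nuclear envelope protein (-0.78), Ect2, which acts in cytokinesis (-0.77), Bccip (-0.73) and Pmepa1 (-0.73). Ect2 was detected in 0 N1-CKO and 8 WT cells, and so met the limit of 6 cells through WT cells alone. Lbr (1 N1-CKO and 7 WT cells) and Pmepa1 (1 and 8) met it mostly through WT cells. Igdcc4 (7 N1-CKO and 1 WT cells), Mxd4 (8 and 2) and Fam174c (9 and 2) met it mostly through N1-CKO cells. Within N1-CKO, r was -0.44 for Lbr, -0.58 for Ect2, -0.56 for Bccip and -0.16 for Pmepa1. Within WT these were -0.80, -0.69, -0.89 and -0.81.

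Neuronal genes that REST silences were measured with a list of 16 genes, of which 15 were on the array and 6 were detected in at least 2 cells. All 6 had a higher mean in N1-CKO cells, 4 of them by at least 2, and their median difference was 2.08, beside 48.5% of genes higher, 4.75% higher by at least 2 and a median of -0.04 over the 8280 genes. Tubb3, a neuronal tubulin, had means of 11.93 ± 3.70 in N1-CKO cells and 8.74 ± 4.43 in WT cells (difference 3.19). Syp and Snap25, of synaptic vesicles and their fusion, differed by 2.55 and 2.13, Stmn2, a tubulin-binding protein of growth cones, by 2.04, Chga, of secretory granules, by 1.95 and Celsr3, a cadherin of axon guidance, by 1.35. A cell held a median of 4 of them (1 to 6) in N1-CKO and 1 (0 to 4) in WT. On high 18S arrays 5 were higher and 1 lower (median 1.86), on low 18S arrays all 6 were higher (2.68), and at a Gapdh ratio of at most 3, 5 were higher and 1 lower (1.42). The 9 measured genes outside the 6 were detected in fewer than 2 cells. Rest itself was detected in 2 cells of each group at the 90th percentile, a count that depends on the threshold.

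Transcripts that miR-124 represses numbered 15, of which 12 were detected in at least 2 cells. All 12 had a lower mean in N1-CKO cells, 2 by at least 2, and the median difference was -1.32, beside 51.5% of all 8280 genes lower and 6.92% lower by 2. Lhx2, a homeobox factor of progenitors, was detected in 5 N1-CKO and 12 WT cells (9.06 ± 4.04 in N1-CKO cells and 12.94 ± 2.66 in WT cells, difference -3.88), Cdk6, a cell cycle kinase, in 2 N1-CKO and 6 WT cells (-2.42), Ctdsp2, a phosphatase of the REST complex, in 8 N1-CKO and 12 WT cells (-1.89) and Vamp3, of vesicle fusion, in 4 N1-CKO and 8 WT cells (-1.87). A cell held a median of 3 of them (1 to 8) in N1-CKO and 6 (2 to 11) in WT. On high 18S arrays 7 were lower and 5 higher, with a median of -0.16, and on low 18S arrays all 12 were lower, with a median of -1.76. Of all genes, 54.6% were higher on high 18S arrays and 45.8% on low 18S arrays. Lhx2 also stands in the list of progenitor markers, 10 of whose 12 detected genes were lower, with a median of -1.84. Ctdsp1, Ctdsp2 and Ctdspl also stand among the corepressor partners of REST, Actl6a among the progenitor BAF subunits and Sox9 among Mueller glia markers. These lists are therefore not separate observations. The part of progenitor and cell cycle state in these differences was not tested.

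The corepressor partners of REST were mixed. Of 15 detected genes 4 were higher and 11 lower, with a median of -0.53, against 51.5% lower among all genes. Rcor3, a scaffold of the complex, was detected in 4 N1-CKO and 0 WT cells (difference 2.46), and Phf21a, a reader of unmethylated histone H3, in 11 N1-CKO and 7 WT cells (1.93), while Hmg20b, a DNA-bending subunit, was detected in 4 N1-CKO and 9 WT cells (-2.11). Only Rcor3 and Hmg20b passed 2, one in each direction, as 4.75% of all genes did upwards and 6.92% downwards. Rcor3 met the limit of 2 cells with detection through N1-CKO cells alone, so nothing is read from its direction.

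Other splicing factors of neurons divided evenly. Of 12 detected splicing factors of neurons 6 were higher and 6 lower, with a median of 0.14 and none higher by 2. Celf2 was detected in 10 N1-CKO and 13 WT cells and had the largest difference among them, -2.45, followed by Nova1 (-1.58), Rbfox2 (-1.56) and Celf5 (1.32). Of 14 detected general splicing factors 4 were higher and 10 lower, none by 2, with a median of -0.67, beside 51.5% lower and 6.92% lower by 2 over all genes. They included Ptbp3, a further PTBP1 paralog (-1.99), Srsf3 (-1.37) and Raver1, a PTBP1 partner (-1.29) on the lower side, and Elavl1, the broadly expressed relative of HuC, detected in 13 N1-CKO and 10 WT cells (1.30).

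Genes of microRNA production and action had 6 higher and 3 lower of 9 detected, with a median of 0.76, beside 48.5% of all genes higher. Ago1, which loads microRNAs, was detected in 12 N1-CKO and 8 WT cells (12.25 ± 2.45 in N1-CKO cells and 9.94 ± 3.80 in WT cells, difference 2.31), Ago2 differed by 1.69 and the imprinted microRNA host Mirg by 1.27. Dgcr8, which crops microRNA precursors in the nucleus, was detected in 5 N1-CKO and 9 WT cells and differed by -2.63. The BAF chromatin complex swaps subunits when progenitors become neurons, a step that miR-124 promotes. Of 4 neuronal subunits 2 were detected: Actl6b in 4 N1-CKO and 1 WT cells (2.20) and Ss18l1 in 2 N1-CKO and 4 WT cells (-1.15). All 4 progenitor subunits were detected, 2 higher and 2 lower, with a median of 0.01. Ss18 had the largest difference (-2.08), which was 1.62 on high 18S and -4.40 on low 18S arrays.

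**Figure D5:**
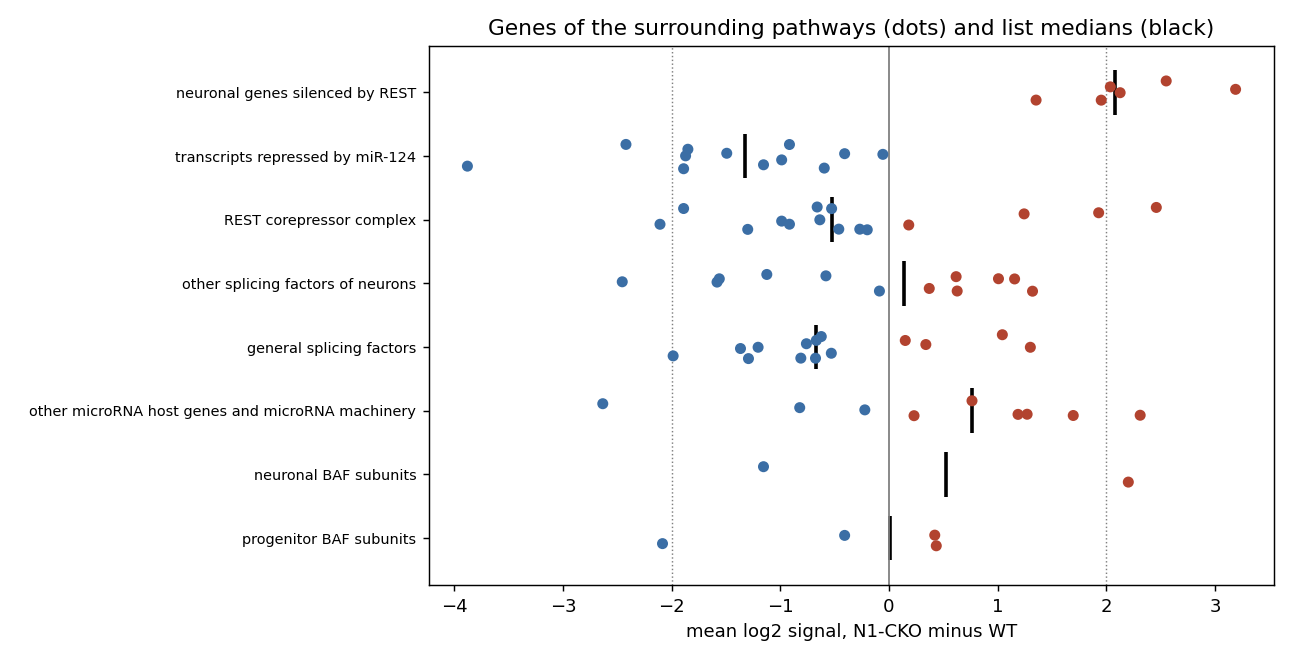
Difference in mean log2 signal, N1-CKO minus WT, of each gene detected in at least 2 cells in 8 lists (dots), with the list's median as a black bar and dotted lines at -2 and 2. Over all cells, all 6 genes silenced by REST lie right of 0 and all 12 repressed by miR-124 left of it, while splicing factors of neurons divide 6 and 6.

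Markers of the cell types the sample could hold also differed between the groups. Photoreceptor precursor markers had 7 higher and 1 lower of 8 detected (median 2.39), 5 of them by 2 or more, beside 48.5% of all genes higher and 4.75% by 2, and a cell held a median of 6 of them (1 to 8) in N1-CKO and 2 (0 to 7) in WT. Amacrine and ganglion cell markers had 6 higher and 3 lower of 9 detected (median 0.36), with a median of 2 per cell in both groups. Both detected horizontal cell markers were higher (median 1.29), the 1 detected bipolar marker was lower (-0.54), and Mueller glia markers had 2 higher and 5 lower (median -0.99). Genes of G2 and M phase were lower in all 20 cases, 18 of them by 2 or more (median -3.28), beside 6.92% of all genes, and a cell held a median of 2 (0 to 12) in N1-CKO and 11 (2 to 19) in WT. In blood vessel markers only Kdr was detected in at least 2 cells, in 3 N1-CKO and 9 WT cells (-2.38). The part of these cell type and cell cycle differences in the values of the members was not tested.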

How the data were processed

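The labels assign 26 single retinal cells, 13 N1-CKO and 13 WT. The authors deposited array intensity on a linear scale from MAS5, per the submitters' processing notes (version not given in the sources used here). Every array had a mean of 500.0 once 2% was trimmed at both ends, so total RNA per cell cannot be compared. From there, signals were floored at the pooled median of 25.02 and log2 was taken. Detection meant reaching the 90th percentile of the array's probe sets other than its 64 controls. Of the 45101 probe sets, 34945 were annotated to 1 gene, 932 to several (left out) and 9211 were not listed; the other 13 are controls annotated to 1 gene. Symbols were checked against RefSeq GRCm38.p6 and 0 needed updating. The probe set with the highest mean stood for each gene. Differences are means of log2 signal, N1-CKO minus WT, and mix how many cells held a transcript with its level in them.

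No test between groups was made, because the labels name no animal and cells are not replicates. Shares carry exact (Clopper-Pearson) 95% intervals, meant for counting error alone. Precision is limited by how many arrays there are. The members and lists were chosen with earlier results of these data known. The text names all members, the 4 genes most like each of Srrm4 and Mir124a-1hg, the 4 least like the mean of the neuronal regulators, and up to 4 genes per list with the largest differences. Other named genes were chosen after their values were seen. List genes off the array were not analysed here. Alternatives changed the floor, the detection threshold, the normalization, the probe set rule and the arrays included. Python 3.11.15, numpy 2.4.6, pandas 2.3.3 and scipy 1.17.1 were used, and the calculations were tested on simulated data.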

Additional observations from a re-analysis of the deposited data

How the results depend on the processing

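Of the 4 detected neuronal regulators, 3 had a higher mean in N1-CKO cells in every alternative over all cells and over each set of arrays. Changing the detection threshold cannot move a mean, and the genes counted were fixed at the main setting, so those alternatives show nothing here. The cells with Mir124a-1hg and Srrm4 detected did change with it, as given above. Leaving out single cells within a set moved Mir124a-1hg below 0 in 3 cases and Ptbp2 above 0 in 2. The number of repressors with a lower mean was 2 over all cells but 1 on high 18S arrays, where Rest was higher by 1.5. Leaving out single cells within an array set was chosen after seeing the data, and without N1-CKO cell 8 it gave -0.06 for Rest and 2 repressors lower. Mir124a-1hg differed by 0.18 on high 18S arrays. With detection at the 85th percentile, the median number of repressors detected was lower by 1 in N1-CKO (-1, against 0). The miR-124 list had 7 lower genes on high 18S arrays, against 12. Neuronal BAF subunits had 2 higher on low 18S arrays, against 1. Progenitor BAF subunits had 0 higher with the mean of all probe sets, 1 after quantile normalization and 4 on high 18S arrays, against 2, and 1 to 3 when each cell was left out in turn. The causes were not tested. Leaving out each cell in turn gave differences of 3.57 to 4.49 for Mir124a-1hg, 3.66 to 4.43 for Srrm4, 1.54 to 2.39 for Elavl3, -0.91 to -0.43 for Ptbp2, -2.23 to -1.20 for Rest and -2.01 to -0.87 for Ptbp1. The difference of Ptbp1 was -0.87 without N1-CKO cell 11 or 12, and that of Ptbp2 was -0.43 without N1-CKO cell 6. The mean number of neuronal regulators detected per cell, an alternative to the median chosen after seeing the data, was 3.15 ± 0.69 in N1-CKO and 1.85 ± 0.90 in WT. No paired analysis was possible because cells with the same number share only that number and the results come from no test. The number of cells, amplification from 1 cell and the common scaling of arrays limit these values.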
